A study of Mus musculus with 8 samples.

Results

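The 9 genes described here encode the D-type cyclins (Ccnd1, Ccnd2 and Ccnd3), the cyclin-dependent kinases CDK2, CDK4 and CDK6 (Cdk2, Cdk4 and Cdk6) and the retinoblastoma family of pocket proteins (Rb1, Rbl1 and Rbl2). They were taken by name, and all 9 were found among the 39179 gene IDs of each library. Their transcripts were measured by sequencing of total RNA, with the strand kept, in 8 libraries of mouse common lymphoid progenitors (CLPs), the marrow precursors of the lymphocyte lineages. The ex vivo CLP group (4 libraries) came from C57BL/6 bone marrow cells that were sorted fresh. The cCLP group (4 libraries) came from C57BL/6 bone marrow cells that had grown for 2 months on the stromal line OP9 with Flt3 ligand and little IL-7 before they were sorted. Both sorts kept lineage-negative cells with Flk2, the IL-7 receptor and CD27 on the surface and no Ly6d. No genetic change was named for either group, and no age, animal, culture or sequencing batch was given, so p-values refer only to the spread among these libraries, which may be technical.

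D-type cyclins are made in response to growth factors and cytokines, and they bind and activate CDK4 and CDK6. The active kinases phosphorylate the pocket proteins, which otherwise hold E2F transcription factors in check, and CDK2 with cyclin E or A completes this step at the entry into S phase. RB binds the activating E2F factors, whereas p107 (Rbl1) and p130 (Rbl2) mostly bind the repressive ones, and p130 takes part in the DREAM complex that represses cell cycle genes in resting cells. In blood cell progenitors CDK6 and cyclins D2 and D3 are the members best known for roles in lymphoid growth.

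The deposited value of a gene is a whole number on a scale that is not named. It is not a read count, so depth is unknown and levels of different genes are not compared. Below, a scaled value is the deposited value divided by a library factor, and a fold change is the log2 difference of scaled value + 1, cCLP minus ex vivo CLP. The deposited values summed to between 378594 and 704305 per library. Of the genes for the surface proteins of the sort, Flt3 (Flk2) had scaled values of 207 to 279 over the 8 libraries and Cd27 of 62.8 to 102.7. Il7r was at 195 to 226 in cCLP 2 to 4 and ex vivo CLP 2 and at 17.2 to 73.7 in the other libraries. Ly6d, whose product was sorted against, was at 0 to 1.1 in the former 4 libraries and at 20.9 to 35.6 in ex vivo CLP 1, 3 and 4 and cCLP 1, so Ly6d RNA in these goes against the labelled sort. Libraries 2 of the ex vivo CLP group and 1 of the cCLP group lay with the other group. Their mean Spearman correlation across genes was 0.88 and 0.892 with their own group and 0.96 and 0.957 with the other, whereas for the remaining 6 libraries it was 0.94 to 0.955 with the own group and 0.896 to 0.921 with the other. No library was moved. Each result is given for all 8 libraries and again without these 2, a choice made from the profiles, so that p-values of the 6-library comparison hold only given that choice.

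Over all 8 libraries as labelled, none of the 9 genes passed the test. Limma called 0 of 6580 genes (0%) at an adjusted p below 0.05, while 510 genes (7.75%) had an unadjusted p below 0.05, among them 1 of the 8 members tested, Cdk6. The groups overlapped for all 8, whereas they did not for 3.45% of all genes tested (1.75% higher and 1.7% lower in cCLPs). Without ex vivo CLP 2 and cCLP 1, Cdk6 rose and Ccnd3 and Rbl1 fell in cCLPs, and the other 5 tested members were not called. The 3 calls among 8 members stand beside 43.1% of the 6622 genes tested, 20.7% called higher and 22.4% called lower, so the share of members called is near that of all genes. At an unadjusted p below 0.05 stood 4 of the 8, Cdk2 being added, against 50.7% of all genes. The median fold change of the 8 members was -0.23, against -0.001 over all genes tested. Scaled values of the 2 groups did not overlap for 4 of the 8 (Cdk2, Cdk6, Ccnd3 and Rbl1), against 55.9% of all genes tested. Of these 4, Cdk2 and Cdk6 were higher (27.6% of all genes) and Ccnd3 and Rbl1 lower (28.3%). In bulk RNA, fewer cells with a transcript and less transcript per cell cannot be told apart.

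**Figure D1:**
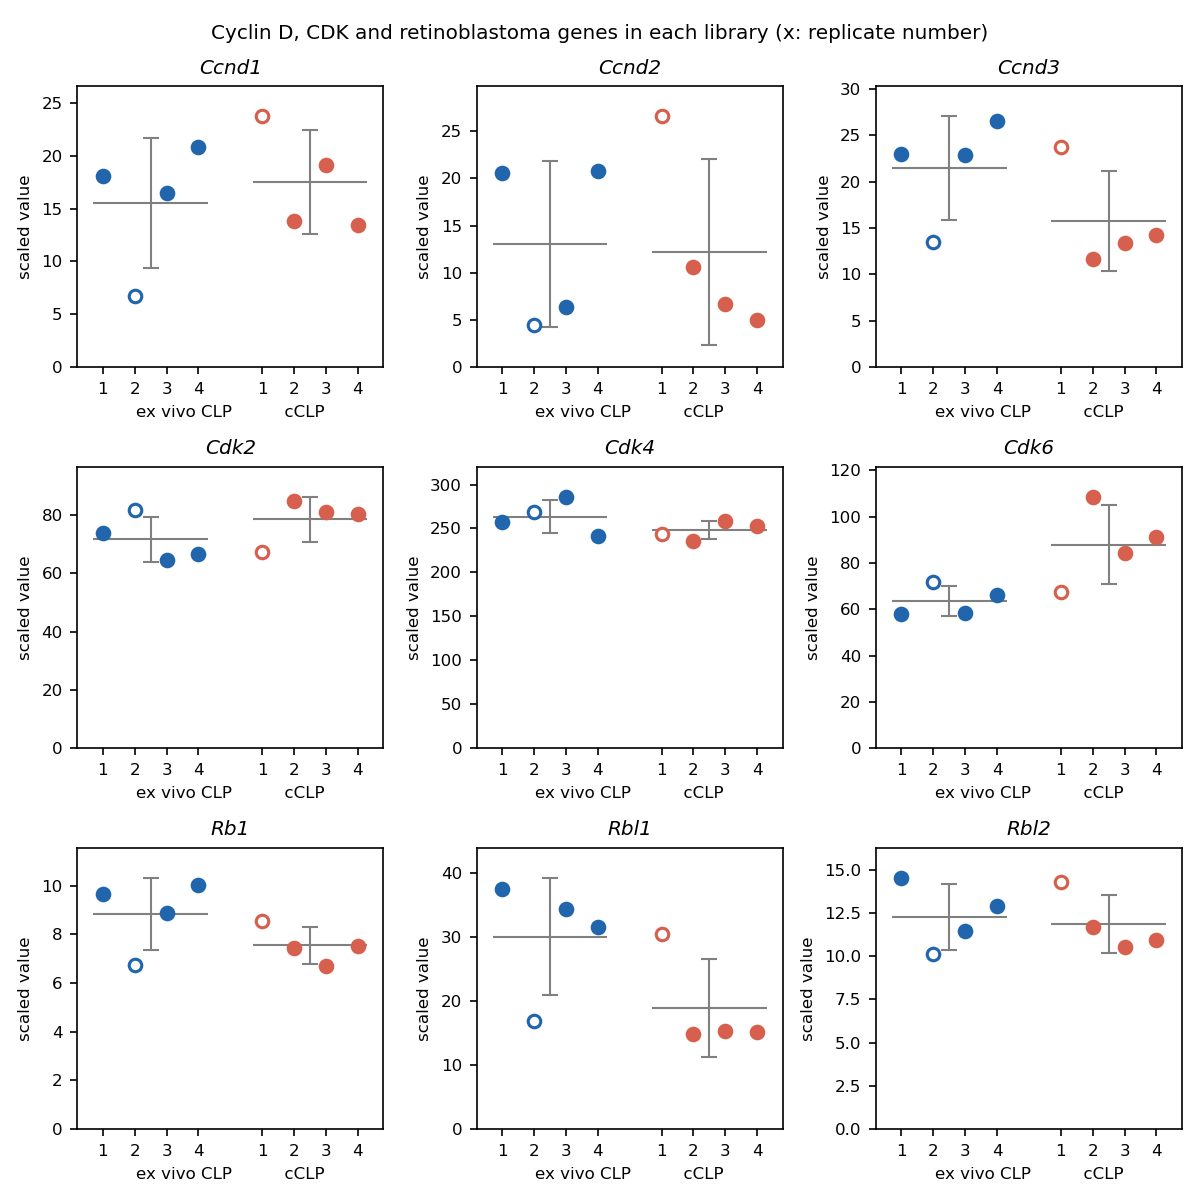
Scaled value of each member (vertical axis, starting at 0) in each of the 8 libraries (horizontal axis, replicate numbers of ex vivo CLP in blue and cCLP in red). Open circles are ex vivo CLP 2 and cCLP 1, and grey lines are the mean ± SD of the 4 libraries as labelled. Rbl1 lies between 14.9 and 16.8 in cCLP 2 to 4 and ex vivo CLP 2, and between 30.4 and 37.5 in the other libraries.

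Among the D-type cyclins, Ccnd3 was the member that separated the libraries most clearly, and Ccnd2 varied most within the groups. Ccnd3 (ENSMUSG00000034165, GRCm38 chromosome 17, 47505051 to 47599691) encodes cyclin D3, the D-type cyclin needed for the expansion of early T cell and pre-B cell precursors. Its scaled values were 23.0, 13.5, 22.9 and 26.6 for ex vivo CLP 1 to 4 and 23.8, 11.7, 13.4 and 14.3 for cCLP 1 to 4. Ex vivo CLP 2 lay within the range of cCLP 2 to 4, and cCLP 1 within that of ex vivo CLP 1, 3 and 4. Over the 8 libraries Ccnd3 averaged 21.5 ± 5.60 (SD, n = 4) and 15.8 ± 5.43, a log2 fold change of -0.43 ± 0.26 (SE) with a limma adjusted p of 0.482. It fell in the 6-library comparison from 24.4 ± 2.12 (SD, n = 3) to 13.2 ± 1.31 (limma log2 fold change -0.83 ± 0.11, adjusted p = 0.000725). With any 1 of the 6 libraries left out the log2 fold change stayed between -0.89 and -0.76. A processed pseudogene of this gene, Ccnd3-ps, was listed at 0 in all 8 libraries.

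Ccnd2 (ENSMUSG00000000184, chromosome 6, 127125162 to 127152193) encodes cyclin D2, a cytokine-responsive cyclin of blood cells. Scaled values of Ccnd2 were 20.5, 4.49, 6.35 and 20.8 for ex vivo CLP 1 to 4 and 26.6, 10.6, 6.69 and 5.03 for cCLP 1 to 4. The highest and the lowest of the 8 values were therefore those of cCLP 1 and ex vivo CLP 2, and ex vivo CLP 3 was as low as cCLP 3. The log2 fold change was -0.09 ± 0.61 (SE, n = 4 per group) over the 8 libraries, with a 95% confidence interval of -1.49 to 1.32 and a limma adjusted p of 0.945. In the 6-library comparison it was -0.89 ± 0.44 (limma adjusted p = 0.138), from 16.1 ± 8.36 (SD, n = 3) to 7.53 ± 2.91. This value turned on 1 library, since without ex vivo CLP 3 it was -1.42 with an adjusted p of 0.00683.

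Ccnd1 (ENSMUSG00000070348, chromosome 7, 144929931 to 144939925) encodes cyclin D1, the D-type cyclin of most epithelial and mesenchymal cells. It had scaled values of 18.1, 6.73, 16.5 and 20.8 for ex vivo CLP 1 to 4 and 23.8, 13.8, 19.1 and 13.4 for cCLP 1 to 4. Ex vivo CLP 2 was below and cCLP 1 above all other libraries, while the remaining libraries of both groups overlapped. Over the 8 libraries the log2 fold change was 0.23 ± 0.34 (SE, n = 4 per group; limma adjusted p = 0.705), and over the 6 it was -0.26 ± 0.15 (adjusted p = 0.219). The sign thus depended on whether these libraries were included. Unlike for Ccnd3, ex vivo CLP 2 lay outside the range of cCLP 2 to 4.

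Of the kinases, Cdk6 rose in cCLPs over the 6 libraries, Cdk2 lay close to the threshold and Cdk4 showed no detectable change. Cdk6 (ENSMUSG00000040274, chromosome 5, 3341485 to 3531008) encodes the D-type cyclin partner that is prominent in blood cells, where it also acts at chromatin. Its scaled values were 58.0, 71.8, 58.4 and 66.0 for ex vivo CLP 1 to 4 and 67.4, 108.4, 84.1 and 91.4 for cCLP 1 to 4. Ex vivo CLP 2 lay above the other ex vivo libraries but below cCLP 2 to 4, so for this gene it did not join the cCLP range, and cCLP 1 lay below it. Over the 8 libraries Cdk6 averaged 63.6 ± 6.62 (SD, n = 4) and 87.8 ± 17.0, a log2 fold change of 0.45 ± 0.15 (SE, 95% interval 0.10 to 0.79). The unadjusted limma p was 0.017 and the adjusted p 0.482, so the gene was not called. Without ex vivo CLP 2 and cCLP 1 it rose from 61.5 ± 4.56 (SD, n = 3) to 95.7 ± 12.6 (limma log2 fold change 0.62 ± 0.12, adjusted p = 0.00421).

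Cdk4 (ENSMUSG00000006728, chromosome 10, 127063534 to 127067920) encodes the other kinase of the D-type cyclins. Its scaled values were 257, 269, 286 and 242 for ex vivo CLP 1 to 4 and 244, 236, 259 and 253 for cCLP 1 to 4. The groups overlapped, with or without the 2 libraries. The log2 fold change was -0.09 ± 0.08 (SE, n = 4 per group), with a 95% interval of -0.28 to 0.11 and a limma adjusted p of 0.582. Over the 6 libraries the interval was -0.32 to 0.19 (adjusted p = 0.657), so a change of 2-fold lay outside both intervals. Cdk2 (ENSMUSG00000025358, chromosome 10, 128697939 to 128705031) encodes the partner of cyclins E and A. It had scaled values of 73.7, 81.9, 64.8 and 66.7 for ex vivo CLP 1 to 4 and 67.4, 85.0, 81.2 and 80.5 for cCLP 1 to 4, so that ex vivo CLP 2 lay with cCLP 2 to 4 and cCLP 1 with ex vivo CLP 1, 3 and 4. The log2 fold change was 0.13 ± 0.11 over the 8 libraries (limma adjusted p = 0.536). In the 6-library comparison it was 0.26 ± 0.09, from 69.1 ± 4.76 (SD, n = 3) to 83.1 ± 2.47, with an adjusted p of 0.0504. Without ex vivo CLP 1 the adjusted p was 0.0235, and with any other library left out it was between 0.0933 and 0.155.

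Among the pocket proteins Rbl1 had the largest fold change of the 8 tested members over the 6 libraries, while Rb1 and Rbl2 differed less. Rbl1 (ENSMUSG00000027641, chromosome 2, 157145893 to 157204534) encodes p107, whose gene is itself an E2F target. Its scaled values were 37.5, 16.8, 34.3 and 31.6 for ex vivo CLP 1 to 4 and 30.4, 14.9, 15.3 and 15.1 for cCLP 1 to 4. The 8 values formed 2 separate levels, with ex vivo CLP 2 near the lower and cCLP 1 near the upper one. As labelled, Rbl1 averaged 30.04 ± 9.13 (SD, n = 4) and 18.9 ± 7.66, a log2 fold change of -0.65 ± 0.30 (SE; limma adjusted p = 0.482). Over the 6 libraries it fell from 34.8 ± 2.98 (SD, n = 3) to 15.3 ± 0.206 (limma log2 fold change -1.14 ± 0.10, adjusted p = 5.9e-05), and it stayed between -1.19 and -1.08 with any 1 library left out. When every deposited value of Rbl1 was moved by 0.5 toward the other group, to allow for rounding, the log2 fold change was -1.07 (adjusted p = 7.61e-05).

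Rbl2 (ENSMUSG00000031666, chromosome 8, 91070057 to 91123844) encodes p130, the pocket protein that accumulates in resting cells. Its scaled values were 14.5, 10.1, 11.4 and 12.9 for ex vivo CLP 1 to 4 and 14.2, 11.7, 10.5 and 10.9 for cCLP 1 to 4, and the groups overlapped. The log2 fold change was -0.04 ± 0.14 (SE, n = 4 per group; limma adjusted p = 0.881) over the 8 libraries and -0.21 ± 0.12 (adjusted p = 0.191) over the 6. Rb1 (ENSMUSG00000022105, chromosome 14, 73183673 to 73325822), the founding member and a tumour suppressor gene, had deposited values of 8, 6, 7 and 14 for ex vivo CLP 1 to 4 and of 9, 7, 7 and 9 for cCLP 1 to 4. Its scaled values were 6.73 to 10.05 in the ex vivo group and 6.69 to 8.55 in the cCLP group, so the groups overlapped. It reached the scaled value of 10 required for testing in 1 library only and was the single member that was not tested. In a fit without that requirement its log2 fold change was -0.19 ± 0.14 (SE, n = 4 per group; limma adjusted p = 0.561) over the 8 libraries and -0.36 ± 0.11 (adjusted p = 0.0356) over the 6, from 9.64 ± 0.596 (SD, n = 3) to 7.30 ± 0.472. At such low whole numbers a step of 1 is a large part of the value.

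**Figure D2:**
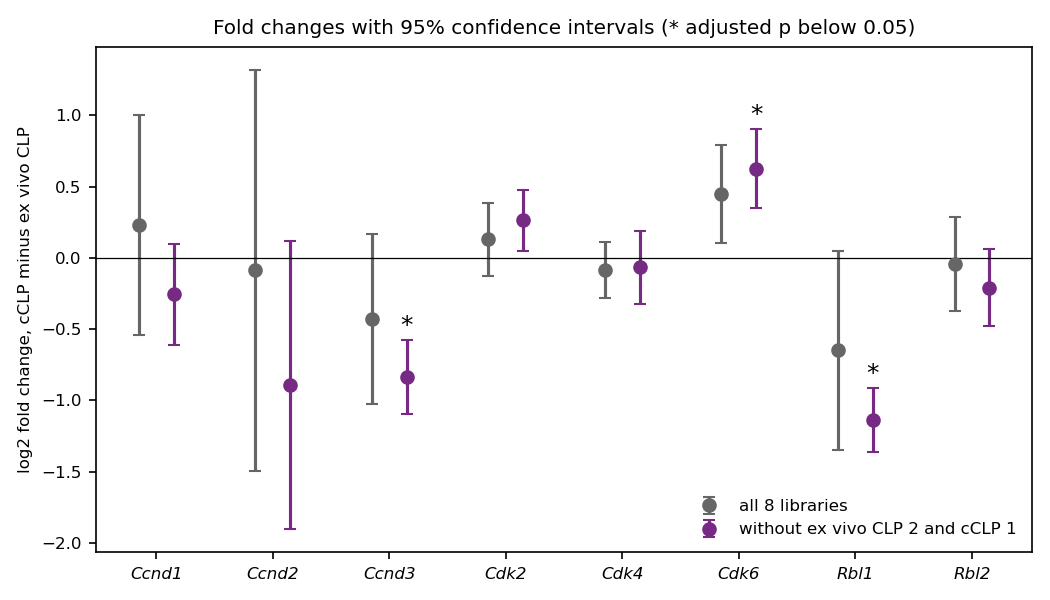
Log2 fold change of the 8 tested members, cCLP minus ex vivo CLP (vertical axis), with 95% confidence intervals from limma, over all 8 libraries (grey) and without ex vivo CLP 2 and cCLP 1 (purple). Asterisks mark an adjusted p below 0.05, which Ccnd3 (-0.83), Cdk6 (0.62) and Rbl1 (-1.14) reached over the 6 libraries and no member over the 8.

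Ratios between members within a library need no library factor, and they are given as a description without a test. The pairs were chosen, and the share of other gene pairs that separate the groups was not computed. The log2 ratio of Cdk6 to Cdk4 was -2.15, -1.91, -2.29 and -1.87 for ex vivo CLP 1 to 4 and -1.86, -1.12, -1.62 and -1.47 for cCLP 1 to 4. The 2 groups as labelled did not overlap, but cCLP 1 lay only just above the highest ex vivo library. For Ccnd1 over Ccnd3 the log2 ratio was -0.34, -1.0, -0.47 and -0.35 for ex vivo CLP 1 to 4 and 0.00, 0.24, 0.52 and -0.09 for cCLP 1 to 4. Here all 4 cCLP libraries lay above all 4 ex vivo libraries. Both cCLP 1 and ex vivo CLP 2 were on the side of their label, which was not so for Ccnd3 or Rbl1 alone. The ratio rests on low whole numbers, with deposited values of 6 to 29 for Ccnd1 and 11 to 37 for Ccnd3. The mean log2 ratio was -0.54 ± 0.31 (SD, n = 4) and 0.17 ± 0.27. In contrast, Ccnd2 over Ccnd3 ranged from -1.85 to -0.16 in the ex vivo group and from -1.50 to 0.16 in the cCLP group. Rbl1 over Rbl2 was 1.37, 0.74, 1.58 and 1.29 for ex vivo CLP 1 to 4 and 1.09, 0.35, 0.54 and 0.47 for cCLP 1 to 4, so that ex vivo CLP 2 lay below cCLP 1. Rbl1 over Rb1 was 1.32 to 1.95 and 1.00 to 1.83, and Rbl2 over Rb1 0.36 to 0.58 and 0.53 to 0.74.

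**Figure D3:**
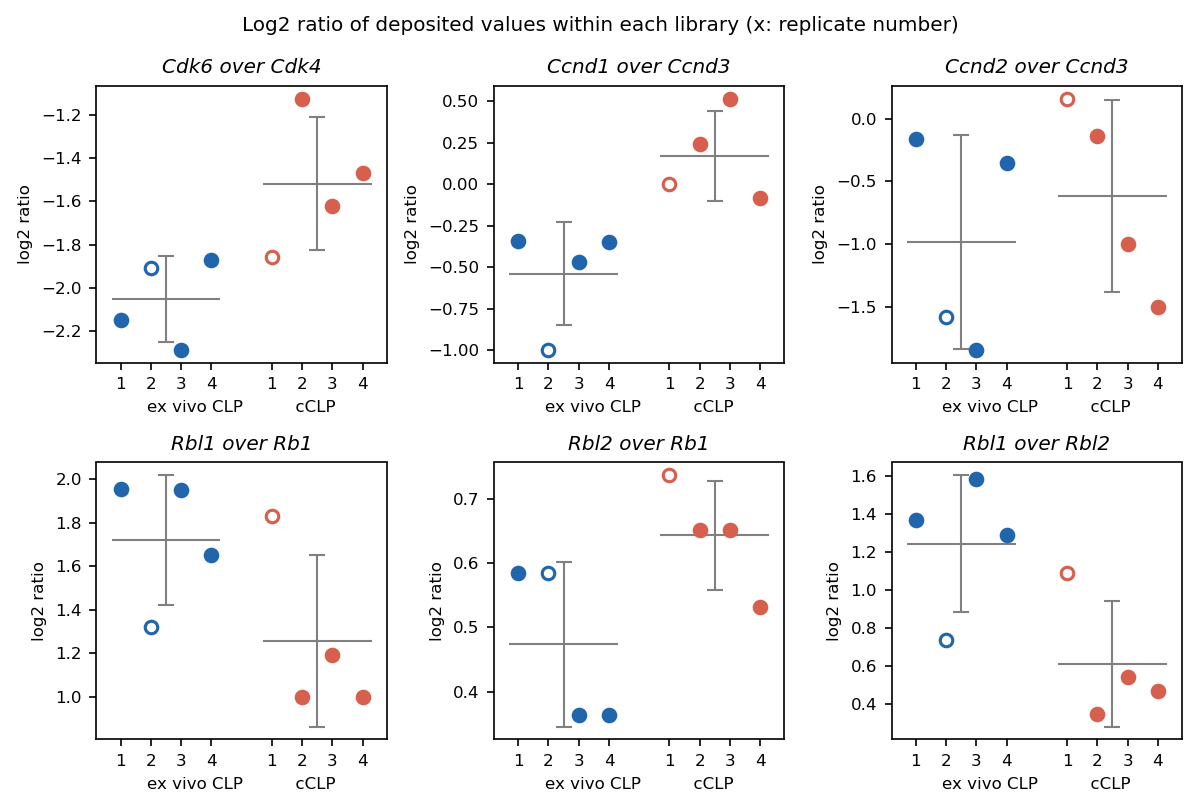
Log2 ratio of the deposited values of 2 members within each library (vertical axis) against replicate number (horizontal axis; ex vivo CLP blue, cCLP red, open circles ex vivo CLP 2 and cCLP 1, grey lines the mean ± SD of 4 libraries as labelled). Cdk6 over Cdk4 and Ccnd1 over Ccnd3 are higher in every cCLP library than in any ex vivo CLP library. For Cdk6 over Cdk4 the gap is small, with -1.86 in cCLP 1 and -1.87 in ex vivo CLP 4.

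The sequences upstream of Rbl1, Cdk2, Cdk4 and Cdk6 are shown because Rbl1 and Cdk6 were called, Cdk2 and Cdk4 were not, and each of the 4 windows holds a motif that bears on the pathway. They are the 250 bases before the RefSeq start of each gene on GRCm38.p6, written 5′ to 3′ on the gene's strand, with motif matches in capitals. The motifs searched on both strands were the E2F motif as TTTGGCGC, TTTCCCGC, TTTGCCGC or TTTCGCGC, the E-box CACGTG that MYC and related factors bind, and the STAT5 motif TTCNNNGAA. No window of a member held more than 1 kind of match, so none overlapped. Rbl1 lies at chr2:157204535-157204784 (minus strand), Cdk2 at chr10:128705052-128705301 (minus strand), Cdk4 at chr10:127063285-127063534 (plus strand) and Cdk6 at chr5:3343643-3343892 (plus strand).
Rbl1: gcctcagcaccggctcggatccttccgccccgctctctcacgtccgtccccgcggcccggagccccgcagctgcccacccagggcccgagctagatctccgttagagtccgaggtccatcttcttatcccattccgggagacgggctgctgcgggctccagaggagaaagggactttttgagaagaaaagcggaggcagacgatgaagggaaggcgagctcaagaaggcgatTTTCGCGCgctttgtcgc
Cdk2: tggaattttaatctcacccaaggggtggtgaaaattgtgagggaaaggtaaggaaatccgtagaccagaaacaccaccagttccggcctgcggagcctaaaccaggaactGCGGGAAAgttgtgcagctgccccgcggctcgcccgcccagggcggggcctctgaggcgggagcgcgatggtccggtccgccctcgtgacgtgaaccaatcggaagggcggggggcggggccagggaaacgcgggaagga
Cdk4: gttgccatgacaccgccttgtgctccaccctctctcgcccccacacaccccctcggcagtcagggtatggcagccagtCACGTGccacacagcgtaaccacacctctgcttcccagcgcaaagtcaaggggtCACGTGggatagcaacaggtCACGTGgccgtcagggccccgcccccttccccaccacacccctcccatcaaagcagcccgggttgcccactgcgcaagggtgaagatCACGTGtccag
Cdk6: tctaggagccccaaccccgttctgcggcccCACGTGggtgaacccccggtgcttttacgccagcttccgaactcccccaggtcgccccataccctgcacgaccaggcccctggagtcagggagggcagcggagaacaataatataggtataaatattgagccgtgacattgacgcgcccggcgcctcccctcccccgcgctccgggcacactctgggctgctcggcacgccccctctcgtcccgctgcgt
The Rbl1 window held 1 E2F match close to the start, and the Cdk2 window 1 such match on the opposite strand, farther upstream. The Cdk4 window held 4 E-boxes and the Cdk6 window 1. Over all 32851 promoter windows of this length the E2F motif occurred in 1.86%, the E-box in 6.02% and the STAT5 motif in 7.02%. Entries existed for 6 of the 9 members, with 2 windows for Ccnd3, and the windows of Ccnd3 and Rbl2 held none of the 3 motifs. Ccnd1, Ccnd2 and Rb1 had no entry. A match is a description of the sequence and does not show that a factor binds there.

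The annotated spans of the members overlap other genes. A span runs from gene start to gene end, so an overlap can lie in introns. Each of the 9 overlapped at least 1 annotated gene on the opposite strand, for example Cdk4 with Tspan31 over 641 bases, Cdk2 with Pmel over 837 bases and Rb1 with Lpar6 over 5400 bases. Rb1 also overlapped Gm17233 (3649 bases) and Mir687 (89 bases) on its own strand. The library kit keeps the strand, but the strand setting of the counting is not given in the sources used here, so signal from these overlaps cannot be told apart.

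The other genes of the pathway were taken from lists chosen with earlier results of these data known. Over all 8 libraries 0 of their tested genes were called. The most calls came from the longest lists, those of G2 and mitosis and of genes that E2F factors drive at the G1 to S transition. Of 24 G1 to S genes 23 were tested over the 6 libraries. Of these 0 rose and 16 fell (22.4% of all genes were called lower), with a median log2 fold change of -0.58. Over all 8 libraries the median was -0.32, and 20 of the 23 values were negative. Examples were Chaf1b (chromatin assembly, -1.01 ± 0.10 SE, n = 3 per group, limma adjusted p = 0.000112), Pola1 (DNA polymerase alpha, -0.92 ± 0.10, 0.000288) and Tk1 (thymidine kinase, -1.05 ± 0.13, 0.000405). With all 8 libraries Cdc45 (replicative helicase) had the smallest p of this list (log2 fold change -0.44, limma adjusted p = 0.482). The summed scaled values of the list separated the same libraries as Rbl1 did. These sums were 2360 to 2514 for ex vivo CLP 1, 3 and 4 and 2382 for cCLP 1, against 1657, 1669 and 1699 in cCLP 2 to 4 and 1692 in ex vivo CLP 2. Promoter windows existed for 21 genes of this list, and 7 of these 24 windows held the E2F motif (29.2%). The genes were listed as E2F targets, so this share is not independent of their choice.

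Genes of G2 and mitosis moved alike over the 6 libraries. Of 21 tested genes 0 were called higher and 16 lower (22.4% of all genes were called lower). For 1 of the 16 the requirement on low values fixed that direction. The median log2 fold change was -0.52 (-0.33 over all 8 libraries). Named by the same rule were Prc1 (spindle midzone, -1.04 ± 0.12 SE, n = 3 per group, limma adjusted p = 0.000334), Kif11 (spindle motor, -0.86 ± 0.13, 0.00135), Birc5 (survivin, -0.83 ± 0.14, 0.00227) and Nusap1 (spindle protein, -0.81 ± 0.16, 0.00491). Of the cyclins that partner CDK2, Ccna2 fell from 110.3 ± 11.2 (SD, n = 3) to 58.9 ± 7.33 (limma log2 fold change -0.90 ± 0.13, adjusted p = 0.000923). Ccne2 was at 14.3 ± 2.75 and 16.1 ± 1.94 (adjusted p = 0.414), and Ccne1 and Ccna1 were not tested.

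Inhibitors of the kinases were lower too. All 4 tested of the 7 listed were called lower over the 6 libraries (22.4% of all genes were called lower), with a median log2 fold change of -1.46. Over all 8 libraries the median was -0.60, and it was -1.09 without ex vivo CLP 2 and -0.97 without cCLP 1. Cdkn1b, which encodes p27, fell from 31.6 ± 3.29 (SD, n = 3) to 13.0 ± 0.426 (limma log2 fold change -1.21 ± 0.10, adjusted p = 6.38e-05). Cdkn2d and Cdkn2c, which encode INK4 inhibitors specific to CDK4 and CDK6, fell by 2.44 ± 0.27 (adjusted p = 0.000285) and 0.73 ± 0.23 (adjusted p = 0.0348) on the log2 scale. Cdkn1a, which encodes p21, fell by 1.71 ± 0.46 (adjusted p = 0.0187). No library of cCLP 2 to 4 reached 10 for it, so the requirement on low values left no direction but down. Cdkn1c, Cdkn2a and Cdkn2b were not tested.

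Regulators on either side of the pocket proteins went both ways over the 6 libraries. Of all genes tested 20.7% were called higher and 22.4% lower. Calls in lists this short do not set these genes apart from that share. Of 5 tested E2F and DP genes 1 rose, E2f3 (log2 fold change 0.42 ± 0.14 SE, n = 3 per group, limma adjusted p = 0.0424), and 1 fell, E2f4 (-0.24 ± 0.08, 0.0494), which encodes the main E2F partner of p107 and p130. E2f6 was at 24.5 ± 4.31 (SD) and 30.8 ± 0.763 (adjusted p = 0.0686). Among 5 tested genes of the MuvB core and B-MYB, Mybl2 (-0.86 ± 0.12, 0.00092) and Lin9 (-0.35 ± 0.11, 0.0381) fell and Lin37 (0.50 ± 0.16, 0.04) rose. Among 7 CDK activators the kinase gene Cdk7 rose (0.68 ± 0.15, 0.00871), and Cdc25b (-1.14 ± 0.17, 0.00106) and Mnat1 (-0.45 ± 0.12, 0.0156) fell. Of 5 tested ubiquitin ligase genes, Btrc rose (1.03 ± 0.13, 0.000533) and Cks1b fell (-0.45 ± 0.11, 0.0117), while Cul1 was not called (adjusted p = 0.287). Of 6 tested upstream genes Stat5a fell (-0.67 ± 0.12, 0.00332), and Akt1 (adjusted p = 0.284) and Foxo3 (0.334) were not called. The requirement on low values fixed the direction of Mybl2, Cdc25b and Stat5a, which no cCLP library of the 6 met, and of Cdk7 and Btrc, which no ex vivo library of the 6 met. For E2f3 all of cCLP 2 to 4 met it, but of the ex vivo libraries only number 1 did (10.9, against 7.62 and 8.61 in numbers 3 and 4).

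**Figure D4:**
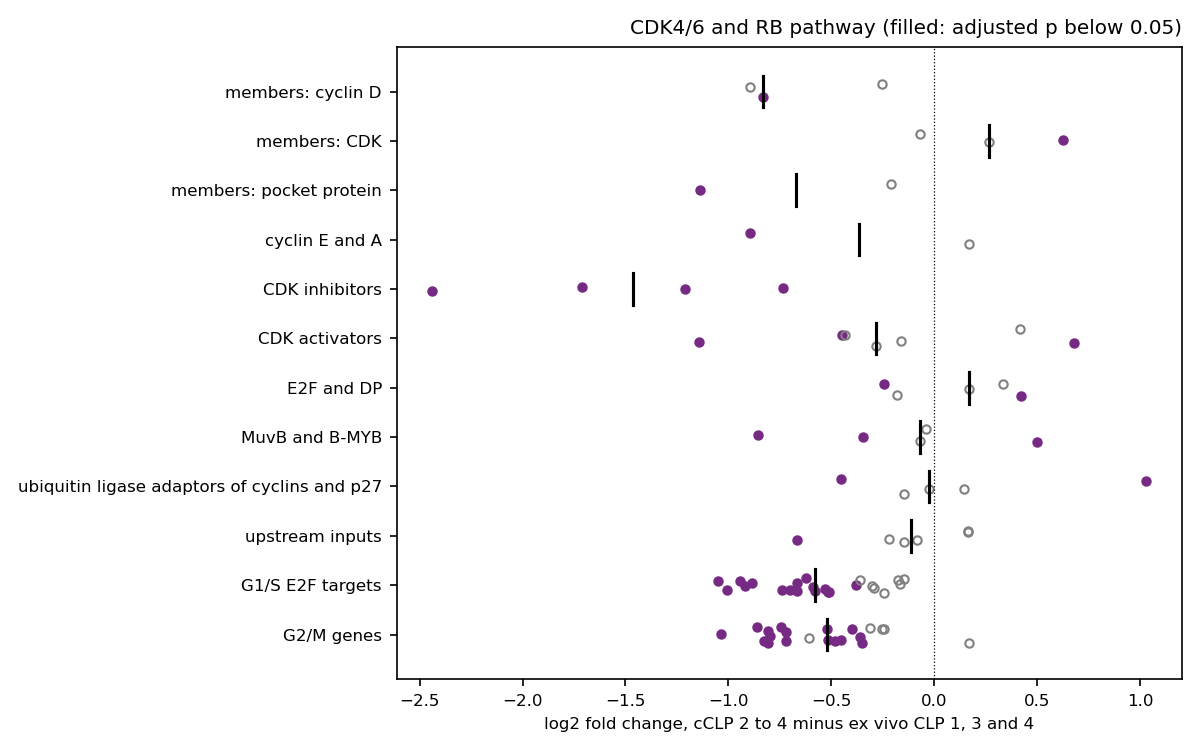
Log2 fold change of each tested gene, cCLP 2 to 4 minus ex vivo CLP 1, 3 and 4 (horizontal axis), by list (vertical axis; 3 groups of members first). Filled circles have an adjusted p below 0.05, open circles do not, black bars are list medians, and vertical scatter has no meaning. Medians are -0.58 for G1 to S genes, -0.52 for G2 and mitosis genes and -1.46 for CDK inhibitors.

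Summed myeloid and dendritic cell markers moved with the same libraries, but the sums of B lineage and stromal markers did not. The summed scaled values of 12 myeloid markers were 1368 to 3228 for ex vivo CLP 1, 3 and 4 and 1711 for cCLP 1. They were 269 to 294 in cCLP 2 to 4 and 171 in ex vivo CLP 2. Of all genes tested 22.4% were called lower over the 6 libraries, a share that stands beside each marker count here. All 12 myeloid markers were called lower. For 11 of the 12 the requirement on low values fixed that direction. Elane, Ctsg, Csf1r, Csf3r, S100a8, S100a9, Ngp and Ltf were listed at 0 in cCLP 2 to 4 and ex vivo CLP 2, where Mpo stood at 162 to 284. Dendritic cell markers summed to 419 to 543 in ex vivo CLP 1, 3 and 4 (450 in cCLP 1) and to 46.1 to 63.1 in cCLP 2 to 4 (47.1 in ex vivo CLP 2), with Zbtb46 at 0 in all 8, 7 of 8 tested and 7 called lower, though for 6 of these 7 the requirement on low values fixed that direction. B lineage markers summed to 45.2 to 66.5 and 18.1 to 28.5 in these groups of 3 (55.0 in ex vivo CLP 2, 47.5 in cCLP 1), but the list did not move as one. Cd79b (30.9 to 38.7 against 1.1 to 3.4) and Blnk (10.2 to 24.2 against 1.1 to 2.9) carried the lower sum. They were the 2 of 8 tested and called lower, a direction that the requirement on low values fixed for both. Ebf1 (0 to 1.2 against 5.7 to 7.5), Cd79a (0.72 to 1.3 against 6.7 to 13.4) and Pax5 (0 against 0.96 to 1.7) had higher values in cCLP 2 to 4 and were too low for testing. Ex vivo CLP 2 had 30.3 for Cd79a, and Igll1 was at or near 0 throughout. T and natural killer markers summed to at most 6.0, with Cd3e, Bcl11b, Ncr1 and Eomes at 0 in all 8, and erythroid and megakaryocyte markers to at most 30.5. Stromal markers summed to 8.9 to 18.1 over all libraries, with Col1a1, Col1a2, Col3a1, Cxcl12 and Sparc listed at 0 in all 8. The sum hid opposite directions. Fn1 was at 0 to 0.72 in ex vivo CLP 1, 3 and 4 and cCLP 1. It was at 5.6 to 11.7 in cCLP 2 to 4 and ex vivo CLP 2. Vcam1 went the other way (0.95 to 2.5 against 0), and Pdgfrb overlapped (6.35 to 13.3 against 2.9 to 6.4). Stromal markers were too low for testing. Whether other cells were present, and whether they had a part in the values of Ccnd3, Cdk6 and Rbl1, was not tested.

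The genes whose profiles over the 8 libraries lay nearest to each member were found from the root mean square difference of centred log2 values, among 3970 other genes with a mean scaled value of at least 20. Nearest to Rbl1 were Uba7 (0.0576), Zfand5 (0.0994) and Ifi35 (0.108). Ccnd3 had Hmgb1 (0.0754), Ppp1r9b (0.0772) and Tax1bp1 (0.0846) as neighbours, and Cdk6 had Usp8 (0.0841), Ap2a2 (0.0888) and Rragc (0.0981). For Cdk4 they were D10Jhu81e (0.0238), Ino80c (0.0284) and Timm44 (0.0379), for Cdk2 Tmem30a (0.0337), Dalrd3 (0.0423) and Ebag9 (0.0453), and for Rbl2 Anp32a (0.0546), Hsf1 (0.0563) and Otud4 (0.0583). The distances of Ccnd1 to Tcf4 (0.225), Aldh2 (0.24) and Med13l (0.249) and of Ccnd2 to Lig1 (0.3), Gm8995 (0.331) and Adssl1 (0.338) were larger than those of the other 6 tested members.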

How the data were processed

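RNA of 4 ex vivo CLP and 4 cCLP libraries was measured. Per the labels' protocols, TruSeq stranded libraries were made from 100 ng of total RNA after Ribo-Zero depletion and sequenced as paired reads of 75 nt. The submitters' processing notes name TopHat2, Bowtie2, HTSeq 1.0.6 and GRCm38 (mm10), without roles. The strand setting, annotation release and scaling are not given in the sources used here. The authors deposited 1 whole-number score per Ensembl gene ID and library. For genes averaging 5 to 50 it varied less between libraries of a group than sampling allows (dispersion index 0.54 for ex vivo CLP 3 and 4, 0.26 for cCLP 3 and 4, where counts give at least 1), so count models were not used.

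Symbols and positions came from GENCODE vM21 (37693 of 39179 IDs matched; Skp1 is Skp1a there). Each library factor was a trimmed mean of its log ratios to 1 library, after 30% of the ratios and 5% of the levels were dropped at each end. Genes that reached a scaled value of 10 in 4 libraries (3 in the 6-library comparison, rescaled anew) were fitted with limma 3.58.1 (R 4.3.3) on log2(scaled value + 1), with a mean-variance trend and robust moderation. P-values were two-sided and Benjamini-Hochberg adjusted over all genes tested. The pipeline was tested on simulated data. Tables used Python 3.11.15 and pandas 2.3.3. Members and lists were chosen with earlier results of these data known. Named were all members, from each list the 3 genes with the smallest p over 6 libraries and the 1 with the smallest over 8, every called gene where at most 5 moved one way, and 3 nearest genes per member; some listed genes are not reported here. Alternatives covered scaling, low-value requirement, pseudocount, moderation, replicate block and each library left out. Moving member values by 0.5 was added after the data were seen.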

Additional observations from a re-analysis of the deposited data

Results flagged for a closer look

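Rbl1 in cCLP 1, with a scaled value of 30.4, lay far from the other 3 cCLP libraries (14.9 to 15.3), the gap being 0.974 of the whole range of the group. This was the 1 such value among 30 sets of 4 values searched (9 members and 6 ratios in 2 groups), and chance marks about 1 set in 20.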

How the results depend on the processing

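Over the 8 libraries 0 genes and 0 members were called under every alternative run, including the replicate block. Over the 6 libraries Ccnd3, Cdk6 and Rbl1 kept their direction and call under every alternative that tested them. The requirement of 20 could not test the direction of Ccnd3 and Rbl1. In cCLP 2 to 4 their values reached at most 14.3 and 15.3, so both genes met it only through the ex vivo libraries. The number of genes called was 5022 (2238 higher, 2784 lower) with no requirement on low values and 1871 (882 higher) with a requirement of 20, as other numbers of genes were tested. With 1 library left out, genes called higher ranged from 896 (without cCLP 4) to 1580. Cdk2 passed the threshold at a requirement of 20 (0.264, adjusted p = 0.0499), at pseudocount 0.5 (0.266, adjusted p = 0.0498) and without ex vivo CLP 1, with a range of 0.227 to 0.317 over single libraries left out. Ccnd2 passed it with the replicate block (-0.896, adjusted p = 0.049) and without ex vivo CLP 3, with a range of -1.42 to -0.626. Of the 6 libraries only those numbered 3 and 4 occur in both groups, so the blocked value rests on these alone. Their Ccnd2 values differ in direction, at 6.35 (ex vivo CLP) and 6.69 (cCLP) for number 3 and 20.8 and 5.03 for number 4. Directions near 0 turned over the 8 libraries. Rbl2 was at 0.006 when scaled by total and at 0.072 with values moved by 0.5, and ranged from -0.127 to 0.038 with 1 library left out. Ccnd2 was at 0.068 with values moved by 0.5 and ranged from -0.527 to 0.216, and Ccnd1 from -0.104 to 0.4. The cause was not tested.

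List medians moved beyond the spread between libraries in some settings. Scaled by total, the median was -0.098 (8 libraries) for MuvB and B-MYB, 0.036 (8 libraries) for ubiquitin ligase genes and -0.536 (6 libraries) for G1 to S genes. With 1 library left out, the 8-library medians ranged from -0.217 to -0.092 for MuvB and B-MYB and from -0.126 to 0.039 for ubiquitin ligase genes. The 6-library medians ranged from -0.166 to -0.048 and from -0.081 to 0.022 for these, from -0.615 to -0.503 for G1 to S genes, from -1.645 to -1.159 for CDK inhibitors (-1.09 to -0.433 over the 8 libraries) and from -0.347 to -0.26 for CDK activators.

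Whether replicate numbers pair libraries is unknown. Deviations of same-numbered libraries correlated across genes at 0.594, 0.842, -0.574 and -0.857 for numbers 1 to 4, and the 2 libraries that lay with the other group enter these values. With the replicate block 2429 genes were called over the 6 libraries. All 24 nearest genes stayed the same when scaled by relative log expression. Depth is unknown, and for members near 10, such as Rb1 and Rbl2, whole-number steps limit the precision.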
